A study of Mus musculus with 12 samples.

Results

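The genotype by ozone interaction was the difference between the response of the Nfkb1-deficient lung to ozone (O3) and the response of the wild-type lung to the same exposure. It was computed for each gene as (Nfkb1KO-O3 minus Nfkb1KO-Air) minus (WT-O3 minus WT-Air) on log2 signals, so that a value of 1 means that the O3-to-air ratio was 2 times higher in the deficient mice, and a negative value that it was lower. All 12 arrays of the series entered it, 3 in each of the 4 groups, and it was tested for all 17569 genes that had a probe set with 1 gene symbol and passed a filter on low signals. Of these, 6 genes passed the test (limma, Benjamini-Hochberg adjusted p below 0.05), which is 0.0342% of the genes tested, and each of the 6 had a positive interaction. No negative interaction passed, that is 0%, while 1065 genes had an unadjusted p below 0.05 in the same limma fit, 573 of them positive and 492 negative.

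The mice were males of 6 to 8 weeks. The deficient line carried the targeted allele Nfkb1tm1Bal (Nfkb1-/-, here Nfkb1KO), so that it lacks p105 and p50 in all cells from the germline on. It was a stock of mixed B6129P background and can keep DNA of the embryonic stem cell strain, above all around the targeted locus. The wild type was B6129PF2/J (Nfkb1+/+, WT), a hybrid background that is not a littermate control. Strain alleles can therefore differ between the genotypes anywhere in the genome, which was not tested. Mice breathed 0.3 ppm O3 for 48 h, or filtered air for the same time, and total RNA of the left lung of 1 mouse was hybridized to each Affymetrix Mouse 430 2.0 array. The annotation named 0 probe sets for Nfkb1 itself, so the genotype labels were not checked against the targeted transcript.

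Nfkb1 encodes p105, which is processed to p50, a DNA-binding subunit of NF-κB that pairs with RelA or c-Rel to activate genes and, as a homodimer without a transactivation domain, can also occupy NF-κB sites without activating them. Interferon-γ (IFN-γ), made mainly by natural killer (NK) and T cells, signals through the kinases JAK1 and JAK2 to genes with gamma-activated sites and, through the transcription factor IRF1, to those with interferon-stimulated response elements. Among its strongest targets are 2 families of GTPases that attack the vacuoles of intracellular pathogens, the guanylate-binding proteins (Gbp genes) and the immunity-related GTPases (Irgm1, Irgm2, Igtp, Ifi47, Iigp1). O3 is an oxidant gas that injures airway and alveolar lining cells and is followed by inflammation, epithelial proliferation and repair.

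The lung markers Sftpc, Sftpb, Sftpa1, Scgb1a1 and Ager lay at or above percentile 99.6 on every array, with Sftpc between 14.28 and 14.58 on the log2 scale. The median deposited signal was between 99.14 and 121.2 on 11 arrays and 180.1 on Nfkb1KO-Air replicate 1. That array also had the lowest rank correlations with the others, 0.915 to 0.93 against 0.947 to 0.969 among the remaining 11. In WT-Air replicate 3, transcripts of skeletal muscle were high, Myh4 reading 12.31 there and 0.67 to 7.94 elsewhere. Results are therefore also given without these 2 arrays. The spiked poly-A controls had an interaction of 0.17 ± 0.26 (SE) and the hybridization controls of 0.05 ± 0.09. Precision is limited by the 3 arrays a group, each standing for 1 mouse. Because whole lung was measured, fewer cells of a type and less RNA per cell cannot be told apart in any result.

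The 6 genes with a called interaction were 5 IFN-γ-inducible GTPases (Gbp6, Igtp, Gbp2, Ifi47 and Gbp7) and Cd274, which encodes the T cell checkpoint ligand PD-L1 and is itself IFN-γ-inducible. In WT mice O3 lowered the signal of Gbp6, Gbp2, Ifi47 and Gbp7, and in Nfkb1-/- mice O3 raised all 6. The ratio of the 2 O3-to-air ratios lay between 3.13 for Gbp7 and 6.6 for Gbp6. In each of these genes the 3 Nfkb1KO-O3 arrays were the highest of the 12, and replicate 3 was the lowest of those 3. Nfkb1KO-O3 was also highest in genes that were not called, such as Il6 with an interaction of -0.28. The share of all genes with this order was not counted. The values below are quantile-normalized log2 signals in the order of replicates 1, 2 and 3.

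Ifi47, an immunity-related GTPase, had the smallest p. Its signals were 10.74, 10.79 and 10.39 in WT-Air, 9.97, 10.07 and 10.03 in WT-O3, 10.99, 11.25 and 11.12 in Nfkb1KO-Air, and 12.45, 12.24 and 12.01 in Nfkb1KO-O3. No 2 groups overlapped, with WT-O3 lowest and Nfkb1KO-O3 highest. The O3 change was -0.62 ± 0.13 (SE, n = 3 arrays a group, limma adjusted p = 0.017) in WT and 1.12 ± 0.13 (adjusted p = 0.001) in Nfkb1-/- mice, and the interaction was 1.73 ± 0.18 (95% interval 1.34 to 2.12, limma adjusted p = 0.007).

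Gbp2, a guanylate-binding protein, gave 11.49, 10.99 and 11.27 in WT-Air, 10.18, 10.32 and 10.40 in WT-O3, 11.17, 11.44 and 11.41 in Nfkb1KO-Air, and 12.46, 12.11 and 11.92 in Nfkb1KO-O3. The air groups of the 2 genotypes overlapped, whereas the O3 groups lay on opposite sides of them. O3 lowered Gbp2 1.93-fold in WT and raised it 1.78-fold in Nfkb1-/- mice, and the interaction was 1.78 ± 0.21 (1.32 to 2.24, limma adjusted p = 0.014). The probe set used for Gbp2 is of a kind that can share sequence with related transcripts. A second Gbp2 probe set without that mark gave 1.49 ± 0.21 (limma adjusted p = 0.052 when every probe set was tested).

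Igtp, another immunity-related GTPase, read 10.25, 10.45 and 10.35 in WT-Air, 9.74, 9.89 and 9.88 in WT-O3, 11.68, 11.37 and 11.23 in Nfkb1KO-Air, and 13.59, 13.40 and 12.51 in Nfkb1KO-O3. Again no groups overlapped. The O3 change of -0.51 ± 0.22 in WT did not pass the test (limma adjusted p = 0.21), while that of 1.74 ± 0.22 in Nfkb1-/- mice did (adjusted p = 0.0013). The interaction was 2.25 ± 0.30 (1.59 to 2.91, limma adjusted p = 0.029).

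Gbp7 had signals of 10.88, 11.19 and 11.41 in WT-Air, 10.39, 10.30 and 10.70 in WT-O3, 11.71, 11.54 and 11.56 in Nfkb1KO-Air, and 12.84, 12.49 and 12.34 in Nfkb1KO-O3. The 4 groups were separate, with WT-O3 lowest. Its interaction was 1.65 ± 0.22 (1.17 to 2.12, limma adjusted p = 0.029), from -0.69 in WT and 0.96 in Nfkb1-/- mice, and a second probe set gave 1.95 ± 0.37.

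Gbp6 showed the widest spread of group means. Signals were 10.02, 9.80 and 9.99 in WT-Air, 8.22, 8.14 and 8.90 in WT-O3, 10.38, 10.79 and 10.71 in Nfkb1KO-Air, and 12.43, 11.89 and 11.17 in Nfkb1KO-O3. O3 lowered Gbp6 2.87-fold in WT (limma adjusted p = 0.0074) and raised it 2.3-fold in Nfkb1-/- mice (adjusted p = 0.022). The interaction was 2.72 ± 0.38 (1.90 to 3.55, limma adjusted p = 0.031), and a second, dimmer probe set of Gbp6 gave 2.13 ± 0.36.

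Cd274 was the called gene whose WT response was closest to 0. The WT-Air arrays had 7.63, 8.05 and 7.89 and the WT-O3 arrays 7.57, 7.71 and 7.87, which overlapped, with a change of -0.14 ± 0.25 (limma adjusted p = 0.82). Nfkb1KO-Air had 8.53, 8.42 and 8.31 and Nfkb1KO-O3 had 11.20, 10.89 and 10.01, a 4.85-fold increase (limma adjusted p = 0.00093). The interaction was 2.42 ± 0.35 (1.66 to 3.17, limma adjusted p = 0.037).

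**Figure D1:**
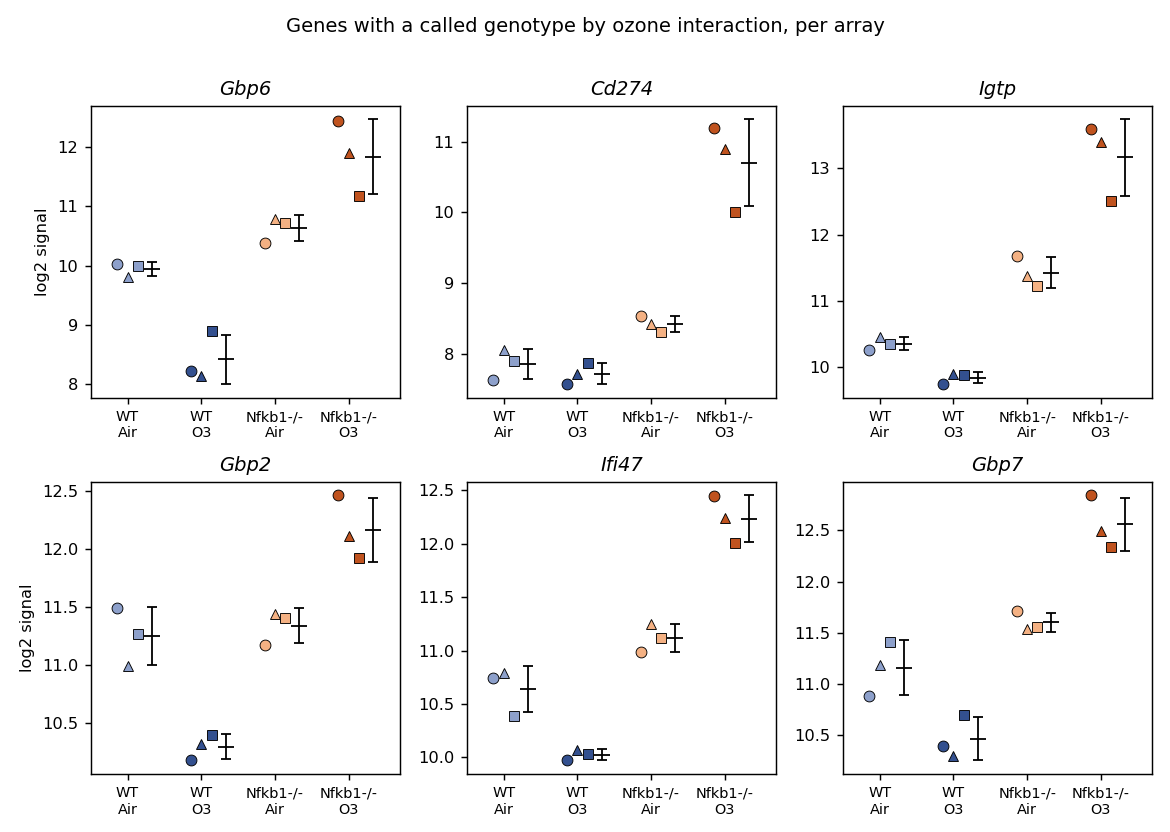
Quantile-normalized log2 signal of the 6 genes with a called interaction, 1 panel per gene with its own y axis, by group on the x axis. Each point is 1 array (circle, triangle and square for replicates 1, 2 and 3), with the group mean and SD (n = 3) in black beside it. The 3 Nfkb1KO-O3 arrays are the highest in every panel, and WT-O3 has the lowest group mean in every panel.

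The comparison of 2 changes is easiest to see gene by gene. O3 altered 949 genes in WT (5.4% of those tested, limma adjusted p below 0.05) and 1086 in Nfkb1-/- mice (6.18%). These 2 contrasts are the terms of the interaction and share its arrays, so they are used here only to give an interaction its shape. Of the 6 called genes, 4 changed in opposite directions in the 2 genotypes, and 2, Cd274 and Igtp, had a change that passed in Nfkb1-/- mice alone. For Igtp the WT-O3 arrays still lay below the WT-Air arrays.

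**Figure D2:**
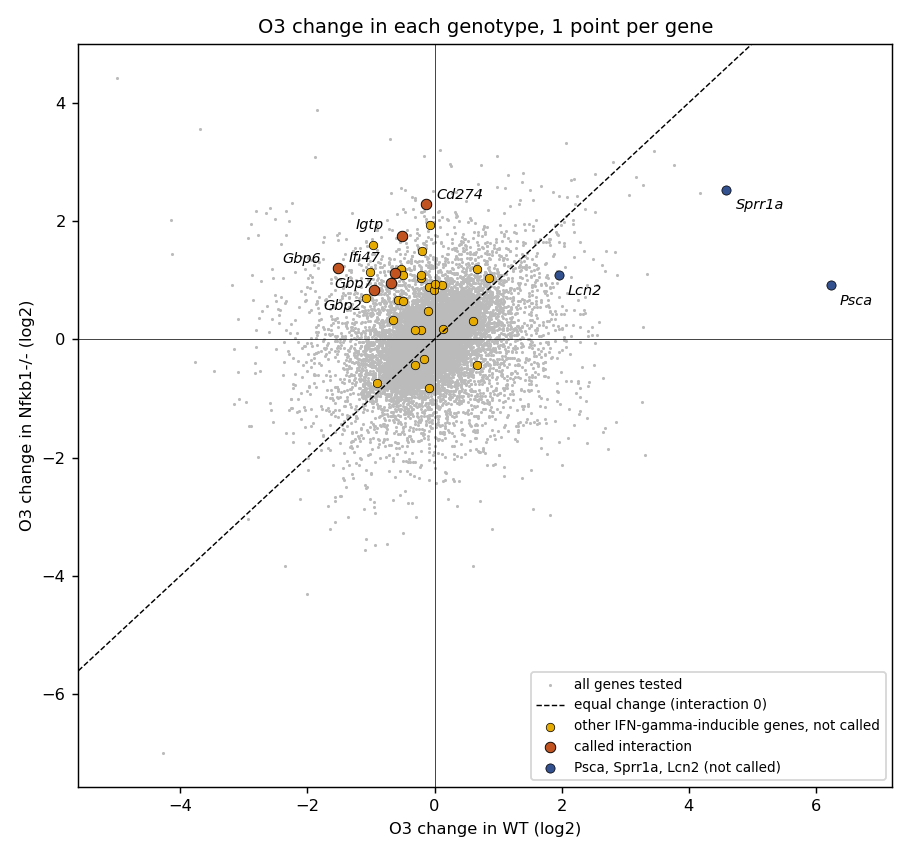
O3 change in WT (x axis) against O3 change in Nfkb1-/- mice (y axis), both in log2, with 1 point for each of the 17569 genes tested. The dashed line marks equal change, so that the vertical distance of a point from it is the interaction. The called genes lie above the line and left of 0 in WT, with Cd274 at -0.14 and 2.28 and Gbp6 at -1.52 and 1.2, and Psca lies farthest below the line among the genes, at 6.23 and 0.91.

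RefSeq windows around the start sites (GRCm38.p6, 250 bases before to 50 after the start) were at hand for 5 of the 6 called genes, all but Gbp6. The interferon-stimulated response element, searched on both strands as GAAA followed, after any 2 bases, by a second GAAA, occurred in 3 of these 5 windows (Gbp2, Gbp7 and Igtp) and in 3.64% of the 13972 tested genes that had a window. The gamma-activated site, searched as TTCNNNGAA, which reads the same on both strands, occurred in 2 of 5 (Gbp7 and Igtp) against 8.56%. The NF-κB consensus occurred in 0 of 5 against 8.16%. Ifi47 and Cd274 held none of the 3 motifs in this window. A match is a run of letters and not a measured site. The windows of Ifi47 and Cd274 are not shown because they held no match. The 3 windows with a response element are shown, with the response element and, where present, the gamma-activated site in capitals.
Igtp, chr11:58199306-58199605, plus strand: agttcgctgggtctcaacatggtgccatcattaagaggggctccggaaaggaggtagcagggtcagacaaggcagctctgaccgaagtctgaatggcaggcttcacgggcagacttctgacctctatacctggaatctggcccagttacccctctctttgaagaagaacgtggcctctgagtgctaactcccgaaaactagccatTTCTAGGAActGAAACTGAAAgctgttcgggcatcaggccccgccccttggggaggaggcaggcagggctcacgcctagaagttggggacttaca
Gbp2, chr3:142620413-142620712, plus strand: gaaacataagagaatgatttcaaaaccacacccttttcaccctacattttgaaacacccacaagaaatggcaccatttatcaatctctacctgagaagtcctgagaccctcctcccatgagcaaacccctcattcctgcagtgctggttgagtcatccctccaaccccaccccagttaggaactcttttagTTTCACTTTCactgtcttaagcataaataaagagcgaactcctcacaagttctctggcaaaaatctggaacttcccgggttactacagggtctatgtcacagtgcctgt
Gbp7, chr3:142530086-142530385, plus strand: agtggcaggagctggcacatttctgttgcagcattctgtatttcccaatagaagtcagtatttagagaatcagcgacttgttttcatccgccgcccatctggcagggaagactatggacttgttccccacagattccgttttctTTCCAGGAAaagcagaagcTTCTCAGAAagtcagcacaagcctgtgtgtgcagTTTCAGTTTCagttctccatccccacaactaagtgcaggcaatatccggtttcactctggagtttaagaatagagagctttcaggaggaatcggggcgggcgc
Relative to the start, the response element spanned positions -34 to -25 in Igtp, -59 to -50 in Gbp2 and -53 to -44 in Gbp7, with the Gbp2 and Gbp7 matches on the opposite strand. In Igtp a gamma-activated site lay just upstream of it without overlap. Gbp2, Gbp7 and Gbp3 lie within 20 Mb of Nfkb1 on the same chromosome, in the region where the deficient line can carry alleles of the stem cell strain, and the part of such alleles in their signals was not tested. Gbp6, Igtp, Ifi47 and Cd274 lie on other chromosomes, where alleles of the parent strains can also differ between the genotypes. The part of such differences was not tested either.

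The remaining IFN-γ-inducible GTPases had positive interactions as well. Of the 23 genes of the list 11 were measured. These 11 include the 5 called GTPases, which the same test picked out, so figures over all 11 are no independent support for the calls. All 11 were positive, with values from 0.79 to 2.72 and a median of 1.73, beside a median of 0.01 over all genes tested. Each of the 11 had an unadjusted limma p below 0.05, as did 6.06% of all genes. Their median O3 change was -0.62 in WT and 1.12 in Nfkb1-/- mice. The 6 that were not called were Gbp3 (1.77 ± 0.28, limma adjusted p = 0.071), Irgm2 (1.57 ± 0.26, adjusted p = 0.073), Iigp1 (1.72 ± 0.30, adjusted p = 0.11), Irgm1 (0.79 ± 0.18, adjusted p = 0.44), Gbp8 (1.69 ± 0.49, adjusted p = 0.65) and Gm4951 (2.14 ± 0.86, adjusted p = 0.81). Summed over the 11 genes, the linear signal ranged from 12700 to 13100 in WT-Air, 7330 to 9030 in WT-O3, 19800 to 20700 in Nfkb1KO-Air and 35400 to 58000 in Nfkb1KO-O3, without overlap. Gbp3, for example, fell by 1.07 on the log2 scale in WT (limma adjusted p = 0.01) and changed by 0.70 ± 0.20 in Nfkb1-/- mice (adjusted p = 0.06). Irgm1 was the only member with a positive value in WT, with changes of 0.12 ± 0.13 in WT and 0.91 ± 0.13 in Nfkb1-/- mice.

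Genes that IFN-γ induces outside the GTPase families were more mixed. Of 23 measured, 18 were positive, 1 was called (Cd274) and the median was 0.58. Wars, the tryptophanyl-tRNA synthetase, was among the closest to the threshold. It read 10.77, 11.01 and 11.05 in WT-Air, 11.04, 10.86 and 10.91 in WT-O3, 11.16, 11.20 and 11.05 in Nfkb1KO-Air, and 12.04, 11.98 and 11.87 in Nfkb1KO-O3. The WT groups overlapped, the highest WT-Air array was level with the lowest Nfkb1KO-Air array, and Nfkb1KO-O3 lay above all others, and the interaction was 0.84 ± 0.13 (limma adjusted p = 0.070). Ido1, which degrades tryptophan, had 6.20, 6.62 and 6.30 in WT-Air, 5.65, 5.65 and 4.93 in WT-O3, 6.41, 6.63 and 6.38 in Nfkb1KO-Air, and 8.61, 8.12 and 7.48 in Nfkb1KO-O3, with an interaction of 2.56 ± 0.46 (1.56 to 3.56, limma adjusted p = 0.13). O3 raised Ido1 3.02-fold in Nfkb1-/- mice (limma adjusted p = 0.014), whereas its fall in WT did not pass. The IgG receptor Fcgr4 had an interaction of 1.25 ± 0.25 (adjusted p = 0.26), Nlrc5, the activator of MHC class I genes, of 1.15 ± 0.34 (adjusted p = 0.65) and Irf1 of 0.58 ± 0.21 (adjusted p = 0.81). The CXCR3 ligands did not share a direction, with Cxcl9 at 1.23 ± 1.5, Cxcl10 at -0.30 ± 0.60 and Cxcl11 at -1.10 ± 0.83.

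Antigen processing for MHC class I had 13 of 14 measured genes positive (median 0.42), with none called. Tap1, a subunit of the peptide transporter, was the gene closest to the threshold among all that missed it. Its signals were 9.18, 9.26 and 9.60 in WT-Air, 8.67, 8.76 and 9.02 in WT-O3, 9.98, 10 and 9.82 in Nfkb1KO-Air, and 10.88, 10.64 and 10.54 in Nfkb1KO-O3, in 4 separate groups. The interaction of Tap1 was 1.28 ± 0.20 (0.85 to 1.71, limma adjusted p = 0.063). Averaged with 3 further Tap1 probe sets, whose mean log2 signals of 3.4 to 4.24 lay under the 20th percentile of 4.37, the value was -0.06. Tap2, the partner subunit, had 0.76 ± 0.12 (adjusted p = 0.072), and the immunoproteasome subunits Psmb9 and Psmb8 had 1.17 ± 0.21 (adjusted p = 0.11) and 0.87 ± 0.20 (adjusted p = 0.48). The class I chains themselves were bounded near 0, with H2-K1 at 0.04 (95% interval -0.26 to 0.33), H2-D1 at 0.06 (-0.19 to 0.30) and B2m at -0.16 (-0.41 to 0.10, but 0.31 with median centring, which moved the median of all genes to 0.25). The proteasome activator subunit Psme1 had an interaction of 0.15 (-0.08 to 0.38). In MHC class II presentation 8 of 10 genes were positive with a median of 0.26 and none passed, for example H2-Ab1 at 0.46 ± 0.23 and H2-DMa at 0.46 ± 0.27.

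Type I interferon-stimulated genes did not follow. Their 29 measured members had a median interaction of 0.00, 14 positive and 15 negative, and a median O3 change of -0.35 in WT and -0.39 in Nfkb1-/- mice, with none called. Oas1a, a 2′-5′-oligoadenylate synthetase, had -0.16 (-0.59 to 0.27), falling in both genotypes (by 0.69 and by 0.84 on the log2 scale, limma adjusted p = 0.015 and 0.0056). Irf7, the transcription factor of the late interferon response, had -0.40 (-0.91 to 0.11), and Ifit3 had -0.55 ± 0.24, Oasl1 -0.85 ± 0.33 and Oas3 -2.28 ± 0.83, none of which passed (limma adjusted p = 0.80 to 0.84). Whether the 2 interferon lists differ was not tested.

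Ligands, receptors and producers of the pathway gave smaller or less certain values. In the list of IFN-γ, IL-12, IL-15 and IL-18 signalling, 14 of 18 genes were positive with a median of 0.53 and none passed. Ifng itself had 1.85 ± 0.81 (0.09 to 3.61, limma adjusted p = 0.81), the IL-2 and IL-15 receptor chain Il2rb 1.89 ± 0.81 and the cytokine Il18 0.74 ± 0.21. A second Il2rb probe set of similar level had the opposite sign, -0.94 ± 0.85. The receptor chain Ifngr1 was at -0.10 (-0.49 to 0.30), Ifngr2 at -0.30 (-0.93 to 0.33), and the kinases Jak1 at 0.00 (-0.32 to 0.33) and Jak2 at -0.18 (-0.46 to 0.10). NK and cytotoxic lymphocyte markers were positive in 14 of 16, with a median of 0.74, and T cell markers in 9 of 12, with a median of 0.44, again with none called. Gzma, a granzyme of NK and cytotoxic T cells, read 9.66, 9.49 and 10.04 in WT-Air, 8.28, 8.33 and 8.76 in WT-O3, 10.92, 11.16 and 11.48 in Nfkb1KO-Air, and 11.40, 10.91 and 11.71 in Nfkb1KO-O3. O3 lowered Gzma 2.42-fold in WT (limma adjusted p = 0.0061), the Nfkb1-/- groups overlapped, and the interaction was 1.43 ± 0.31 (adjusted p = 0.32). Gzmb followed the same order of groups (1.32 ± 0.30, adjusted p = 0.43), and the T cell receptor subunits Cd3e and Cd3d had 1.85 ± 0.77 and 1.00 ± 0.46. The summed signal of the 16 NK and cytotoxic markers ranged from 2600 to 3350 in WT-Air, 1310 to 1780 in WT-O3, 6130 to 7780 in Nfkb1KO-Air and 4710 to 8450 in Nfkb1KO-O3. Thus it moved with the GTPases in WT, but in Nfkb1-/- mice its O3 range overlapped its air range. The 12 T cell markers summed to 1170 to 2080, 1030 to 1130, 1300 to 1540 and 979 to 1420 in the same order of groups. The part of these cells in the interaction of the IFN-γ-inducible genes was not tested.

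**Figure D3:**
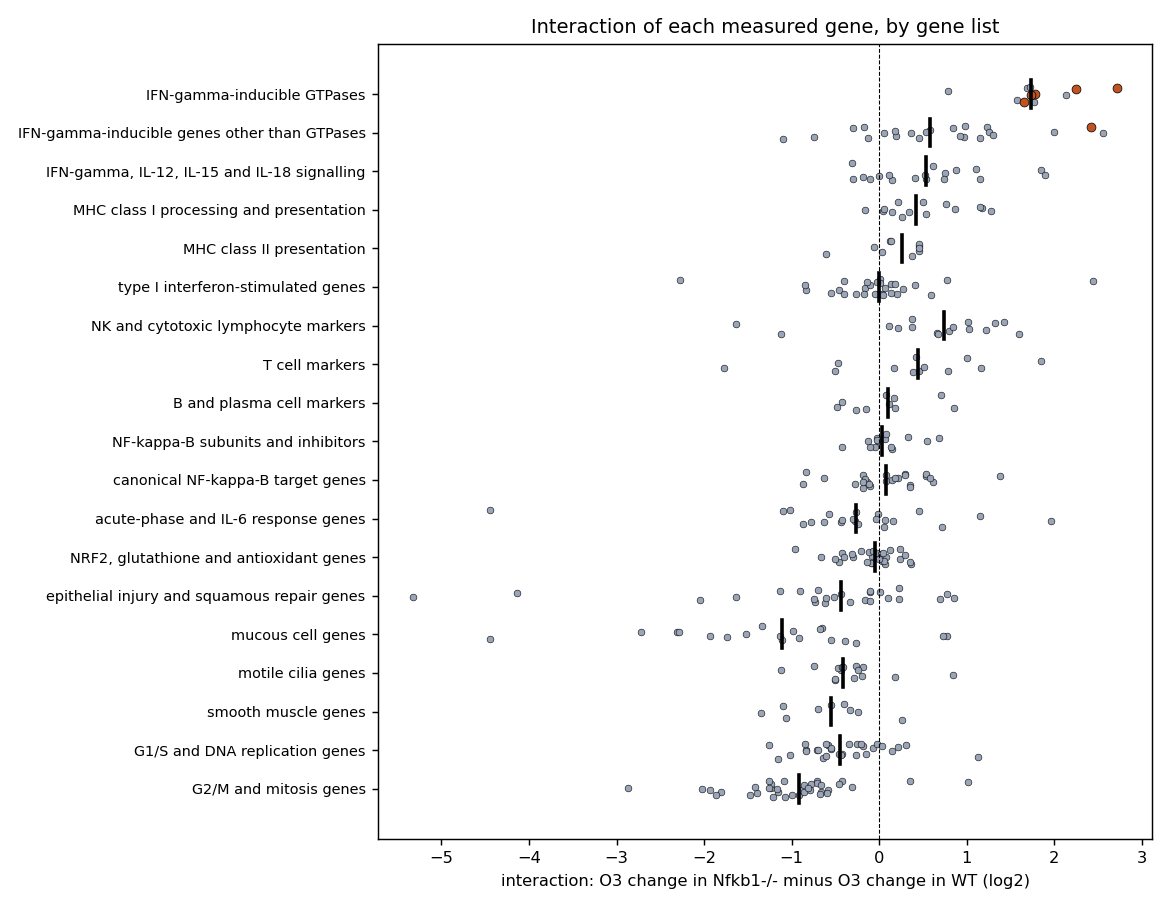
Interaction (x axis, log2) of each measured gene in 19 gene lists (y axis), 1 point per gene, with the list median as a black bar and called genes in orange. Points are scattered vertically within a list for legibility. All 11 IFN-γ-inducible GTPases lie right of 0 around a median of 1.73, the type I interferon-stimulated genes have a median of 0.00, and 35 of 37 G2/M genes lie left of 0 around a median of -0.92.

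On the negative side, the smallest limma adjusted p was 0.11, and the genes described here are named as not called. Psca, a Ly6-family surface protein of epithelia, had the lowest value of all genes, -5.32 ± 0.93 (-7.33 to -3.30, limma adjusted p = 0.11). Its signals were 6.01, 2.93 and 3.93 in WT-Air, 10.42, 10.69 and 10.46 in WT-O3, 2.51, 3.25 and 3.72 in Nfkb1KO-Air, and 3.75, 4.74 and 3.71 in Nfkb1KO-O3. The 3 WT-O3 arrays stood far above all others, whereas 7 of the 12 arrays lay at or under 4.37, the 20th percentile, where MAS5 signals are poorly determined. O3 raised Psca in WT by 6.23 ± 0.66 (limma adjusted p = 0.00049), and the change in Nfkb1-/- mice was 0.91 ± 0.66 (adjusted p = 0.47). The interaction of Psca passed the threshold when no normalization between arrays was used, with median centring, with signals under 16 set to 16, with array weights and without WT-Air replicate 1.

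Sprr1a, a small proline-rich protein of squamous and injured epithelium, read 6.99, 5.75 and 6.79 in WT-Air, 11.01, 11.27 and 11.01 in WT-O3, 7.48, 7.22 and 6.79 in Nfkb1KO-Air, and 9.71, 9.59 and 9.80 in Nfkb1KO-O3. O3 raised it in both genotypes without overlap, 24-fold in WT and 5.79-fold in Nfkb1-/- mice, and the interaction was -2.05 ± 0.39 (-2.89 to -1.21, limma adjusted p = 0.17). Krt18, a keratin of simple epithelia, gave 12.39, 12.21 and 12.30, then 13.05, 13.22 and 13.15 in WT, and 12.46, 12.58 and 12.46, then 12.82, 12.85 and 12.81 in Nfkb1-/- mice, air before O3. It rose 1.8-fold in WT and 1.25-fold in Nfkb1-/- mice, with a narrow interval for the interaction (-0.74 to -0.30, limma adjusted p = 0.20). Among the 25 measured genes of epithelial injury and squamous repair, 18 were negative and the median was -0.44. With O3, 12 of the 25 rose in WT and 7 in Nfkb1-/- mice, against 555 and 589 of all 17569 genes. The tight-junction gene Cldn4 rose in both genotypes (1.48 and 0.78 on the log2 scale, limma adjusted p = 3e-04 and 0.0089) with an interaction of -0.70 ± 0.20. Other members had intervals around 0, such as Krt7 at 0.01 (-0.29 to 0.30) and the TWEAK receptor Tnfrsf12a at -0.10 (-0.65 to 0.44), both of which rose in both genotypes.

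Lcn2, the siderophore-binding acute-phase protein lipocalin 2, read 10.98, 10.94 and 11.25 in WT-Air, 13.01, 12.92 and 13.09 in WT-O3, 11.25, 11.86 and 11.63 in Nfkb1KO-Air, and 12.50, 12.69 and 12.81 in Nfkb1KO-O3. It rose 3.87-fold in WT and 2.12-fold in Nfkb1-/- mice, and the interaction was -0.87 ± 0.20 (-1.30 to -0.44, limma adjusted p = 0.44). The metal-binding metallothionein Mt2 rose 3.53-fold and 1.82-fold, with -0.96 ± 0.20 (adjusted p = 0.29). Lrg1, another acute-phase gene, rose in WT by 1.54 ± 0.20 and changed by 0.51 ± 0.20 in Nfkb1-/- mice (interaction -1.02 ± 0.29, limma adjusted p = 0.65), and Saa3 had -1.10 ± 0.37 (adjusted p = 0.78). For these 4 genes the Nfkb1KO-Air mean was above the WT-Air mean, for example 11.58 against 11.06 for Lcn2 and 12.13 against 10.96 for Lrg1. Over the 22 acute-phase and IL-6 response genes the median was -0.27, with 15 negative. Il6 rose in both genotypes, by a fitted 10.9-fold in WT, where the air signals lay under the 20th percentile, and 9.04-fold in Nfkb1-/- mice, and its interaction of -0.28 had an interval from -1.41 to 0.86.

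Klf11, a Krüppel-like repressor, had the third smallest p on this side and a different shape. It read 10.17, 10.04 and 10.03 in WT-Air, 9.98, 10.03 and 9.78 in WT-O3, 9.95, 10.08 and 10.11 in Nfkb1KO-Air, and 9.17, 8.96 and 9.20 in Nfkb1KO-O3. Only the last group stood apart, with a fall of 0.94 on the log2 scale (limma adjusted p = 0.001), and the interaction was -0.78 ± 0.15 (adjusted p = 0.19). The membrane mucin Muc4 fell in Nfkb1-/- mice by 0.71 (adjusted p = 0.012; interaction -0.91 ± 0.20, adjusted p = 0.32), as did the sugar phosphate enzyme Pgm2l1 by 0.60 (adjusted p = 0.0064; interaction -0.62 ± 0.15, adjusted p = 0.48). The nuclear exporter Xpo1 changed by 0.34 in WT and -0.21 in Nfkb1-/- mice, neither of which passed (interaction -0.55 ± 0.13, limma adjusted p = 0.48).

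**Figure D4:**
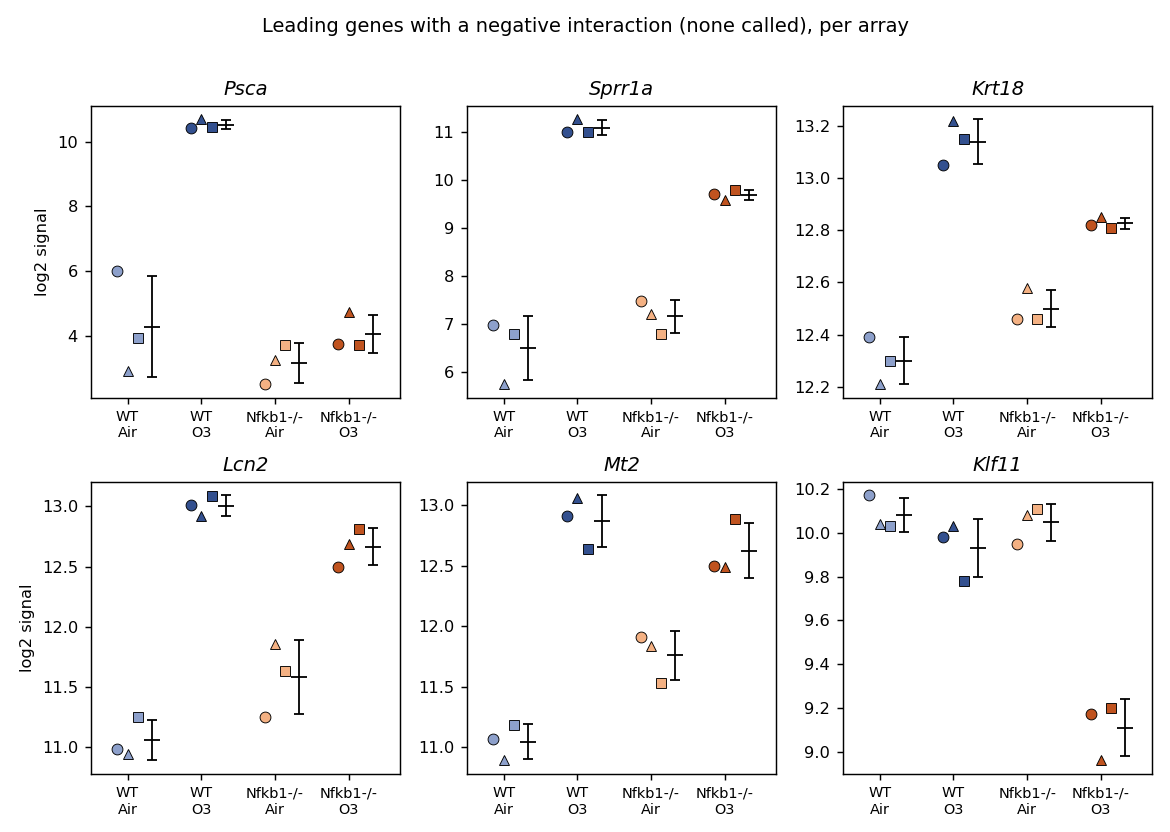
Quantile-normalized log2 signal of 6 of the 10 leading genes with a negative interaction, drawn as for the called genes (1 point per array, mean and SD of 3 arrays in black, each panel with its own y axis). In Psca, Sprr1a, Krt18, Lcn2 and Mt2 the WT-O3 mean is the highest, and in Klf11 the Nfkb1KO-O3 arrays, at 8.96 to 9.20, lie below all others. None of the 6 passed the test.

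Proliferation genes mostly shared a sign and had no call, where 0.0342% of all genes were called. Among 37 measured G2/M and mitosis genes, 35 were negative, with a median of -0.92. An unadjusted limma p below 0.05 was reached by 14 (37.8%, against 6.06% of all genes), all of them negative. The median O3 change of the 37 genes was 1.16 in WT, where 9 rose, and 0.12 in Nfkb1-/- mice. Over all genes, 555 of 17569 rose in WT. The spindle checkpoint gene Mad2l1 read 7.73, 8.24 and 8.15 in WT-Air, 9.30, 9.40 and 9.36 in WT-O3, 8.20, 9.04 and 8.57 in Nfkb1KO-Air, and 8.53, 8.55 and 8.98 in Nfkb1KO-O3. It rose 2.49-fold in WT, the Nfkb1-/- groups overlapped, and the interaction was -1.23 ± 0.30 (-1.88 to -0.58, limma adjusted p = 0.51). The mitotic kinase Cdk1 had -2.02 ± 0.54 (adjusted p = 0.64) and the centromere protein Cenpf -1.81 ± 0.48 (adjusted p = 0.64), both risen in WT. Securin (Pttg1), which the study singled out, was 1 of the 2 positive members, at 0.35 ± 0.58. Of 30 G1/S and replication genes, 25 were negative with a median of -0.45, among them the flap endonuclease Fen1 (-1.15 ± 0.29, limma adjusted p = 0.53) and cyclin D1 (Ccnd1, -0.64 ± 0.18, adjusted p = 0.65), the latter falling in Nfkb1-/- mice and not passing in WT. A second, dimmer Fen1 probe set gave -0.23 ± 0.36. The chromatin protein Hmgb2 rose in WT by 0.93 ± 0.22 and had an interaction of -1.34 ± 0.31 (adjusted p = 0.44). Genes of the cell cycle vary together and are not independent replicates of a pattern. Without the 2 arrays that stood apart the G2/M median was -1.59, and over all alternatives it lay between -1.59 and -0.59.

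Neither NF-κB genes nor NF-κB targets held a call. With 0.0342% of all genes called, this says little about lists of this size. Of 14 measured subunits and inhibitors, 7 were positive and 7 negative (median 0.03), and 0 had an unadjusted p below 0.05 in limma. The 25 canonical target genes went both ways, with 14 positive, 11 negative and a median of 0.08, and 5 of them (20%, against 6.06% of all genes) had an unadjusted p below 0.05. These 5 were Lcn2 (-0.87), Edn1 (-0.84), Irf1 (0.58), Junb (0.54) and the mitochondrial superoxide dismutase Sod2 (0.35). Rela was bounded between -0.26 and 0.24, the inhibitor Nfkbia (IκBα) between -0.15 and 0.45, and the ubiquitin-editing enzyme Tnfaip3 between -0.50 and 0.29, while the intervals of Nfkb2 (-0.70 to 1.81) and of the nuclear inhibitor Nfkbid (-1.21 to 0.38) left room for more than a 2-fold difference. Endothelin 1 (Edn1), a vasoconstrictor, rose in WT by 0.66 ± 0.17 and changed by -0.18 ± 0.17 in Nfkb1-/- mice (interaction -0.84 ± 0.24, limma adjusted p = 0.65). The neutrophil genes and CXCR2 ligands had a median of 0.11, with Mmp9 at 0.98 ± 0.42 and Cxcl5 at 1.59 ± 0.81. Cxcl5 rose in Nfkb1-/- mice (limma adjusted p = 0.021) and did not pass in WT. Monocyte and CC chemokine genes had a median of 0.11, and the dendritic cell list of -0.29. Ccl22, a ligand of CCR4, read 6.89, 5.74 and 5.54, then 7.44, 8.15 and 7.78 in WT, and 6.28, 6.36 and 6.78, then 5.90, 5.98 and 6.41 in Nfkb1-/- mice, air before O3. It rose 3.33-fold in WT, the Nfkb1-/- groups overlapped, and the interaction was -2.11 ± 0.51 (limma adjusted p = 0.51). Ccl17, the other CCR4 ligand, rose in both genotypes with -1.38 ± 0.40 (adjusted p = 0.65). Ccl20 had 0.54 ± 1.29, and the B cell chemoattractant Cxcl13 2.51 ± 0.87 (0.63 to 4.40).

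In the remaining immune lists none passed in the reported fit either, where 0.0342% of all genes did. Alveolar macrophage markers had a median of 0.07, with the scavenger receptor Marco at 0.90 ± 0.31, rising 2.05-fold in WT and 3.82-fold in Nfkb1-/- mice, and Pparg at 1.07 ± 0.54. B and plasma cell markers had a median of 0.10 (Cd22 -0.42 ± 0.39, Cd79a -0.48 ± 0.58, Jchain 0.85 ± 1.19). The TLR4 and CD14 recognition list had 0.03, with the inflammasome adaptor Pycard at 0.59 ± 0.23 and Cd14 at -0.67 ± 0.31, complement 0.34 (C2 0.77 ± 0.28, Cfi 1.18 ± 0.51), and type 2 cytokine and alternative macrophage genes -0.34 (Retnla -1.08 ± 0.55). Retnla read 12.8, 12.28 and 14.51 in WT-Air, and its interaction passed without WT-Air replicate 3. It also passed without both arrays that stood apart. The apoptosis protease Casp8 had -0.35 ± 0.13.

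Airway and structural lists were mostly below 0 and contained no call, where 0.0342% of all genes were called. Mucous cell genes were negative in 17 of 19 with a median of -1.11, and their single-gene errors were wide, as for Muc5ac (-1.11 ± 0.97), Muc5b (-1.13 ± 0.83) and Agr2 (-2.31 ± 1.21). The immunoglobulin transporter Pigr had -0.55 ± 0.23. The summed signal of this list varied severalfold within groups, from 12300 to 56700 in WT-Air, from 10100 to 44500 in WT-O3 and from 11800 to 59800 in Nfkb1KO-O3, and between 59000 and 75700 in Nfkb1KO-Air. Motile cilia genes were negative in 13 of 15 (median -0.41), for example Rsph1 (-0.50 ± 0.24), which fell in Nfkb1-/- mice, and Ccno (-1.12 ± 0.60). Smooth muscle genes had a median of -0.55, with Actg2 at -1.35 ± 0.36 (limma adjusted p = 0.64) and Acta2 at -0.70 ± 0.21 (adjusted p = 0.69), both fallen in Nfkb1-/- mice and not passing in WT. The endothelial median was -0.23, with Sox18 at -0.59 ± 0.19. Coagulation and matrix genes had -0.13 (Plat -0.79 ± 0.35), and EGF receptor ligands and receptors -0.06, with Ereg (-1.69 ± 0.69) rising 18-fold in WT and 5.55-fold in Nfkb1-/- mice and Erbb3 at -0.32 ± 0.14. The matrix proteins Tnc and Col1a2 had -0.09 ± 0.42 and -0.26 ± 0.16.

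Lists of the lung parenchyma and of metabolism had medians close to that of all genes. Club cell genes had 0.04 (Scgb1a1 0.41 ± 0.16, Cyp2b10 -0.45 ± 0.19), alveolar type 2 genes 0.01 (Sftpc 0.20 ± 0.09, Lyz1 0.21 ± 0.10) and alveolar type 1 genes 0.09 (Igfbp2 0.86 ± 0.42, Rtkn2 0.35 ± 0.24). Scgb1a1 read 14.9 on each WT-Air array (SD 0) and on arrays of both O3 groups, since quantile normalization gives equal ranks equal values. Its interaction and SE are therefore poorly determined. Cholesterol biosynthesis had -0.09, with Pmvk at 0.77 ± 0.30 and Sqle at -0.39 ± 0.22. Of its 20 genes, 9 rose with O3 in WT and 7 in Nfkb1-/- mice, against 555 and 589 of all 17569 genes. NRF2, glutathione and antioxidant genes had -0.05. In that list the glutathione synthesis enzyme Gclc rose in WT by 0.73 ± 0.14 and changed by 0.08 ± 0.14 in Nfkb1-/- mice, with an interaction of -0.66 ± 0.19 (limma adjusted p = 0.65). The AhR and xenobiotic list had 0.07 (Ahr -0.38 ± 0.15, falling in both genotypes), and heat shock proteins -0.10 (Hsp90aa1 -0.27 ± 0.11, Hspa4l -0.32 ± 0.20).

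Immediate early and clock genes held several of the positive values outside the interferon group. AP-1 genes had a median of 0.10. Of the 22, 8 rose in WT and 11 in Nfkb1-/- mice, against 555 and 589 of all 17569 genes. Fos had 0.82 ± 0.32, the stress factor Atf3 0.80 ± 0.28 and Junb 0.54 ± 0.21, each risen in Nfkb1-/- mice, and Junb in WT too. Clock genes had a median of -0.26. Of the 17 measured, 9 (52.9%, against 6.06% of all genes) had an unadjusted limma p below 0.05, 4 positive and 5 negative. Nfil3, the E4BP4 repressor, read 8.02, 7.22 and 7.06, then 8.07, 7.68 and 7.55 in WT, and 7.05, 6.72 and 6.97, then 8.89, 9.05 and 9.15 in Nfkb1-/- mice, air before O3. Its Nfkb1KO-O3 arrays were the highest and the WT groups overlapped, with an interaction of 1.78 ± 0.35 (1.02 to 2.54, limma adjusted p = 0.21). Dbp, the clock output factor that binds the same motif as an activator, went the other way. It read 9.92, 10.86 and 11.16, then 10.26, 10.71 and 11.29 in WT, and 11.48, 11.93 and 11.40, then 9.74, 10.26 and 9.02 in Nfkb1-/- mice. It fell 3.81-fold in Nfkb1-/- mice and the WT groups overlapped, with an interaction of -2.04 ± 0.50 (-3.13 to -0.95, limma adjusted p = 0.52).

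Skeletal muscle markers had the highest list median, 3.59, with 13 of 13 positive and none called, and individual values such as Tnnc2 at 9.41 ± 3.08 and Myh2 at 3.19 ± 1.10. Their summed signal was 1470 to 45000 in WT-Air, 655 to 1180 in WT-O3, 1560 to 2350 in Nfkb1KO-Air and 613 to 10700 in Nfkb1KO-O3, so that WT-O3 lay below both air groups, Nfkb1KO-O3 overlapped the other 3 groups, and single arrays held the high values. Without WT-Air replicate 3 and Nfkb1KO-Air replicate 1 the median was 2.25. Cardiac muscle markers had a median of 0.36 (Myl7 0.37 ± 0.99, Ryr2 0.33 ± 0.98), and of erythroid genes 3 were measured (Slc4a1 1.78 ± 0.63, Alas2 0.68 ± 0.40).

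A list of 32 genes was drawn from those the study singled out on these arrays, and 30 of them were measured. Of the 30, 15 were positive, 15 negative and none was called, where 0.0342% of all genes were called. An unadjusted limma p below 0.05 was reached by 20 of the 30 (66.7%, against 6.06% of all genes). Their values are those given above. The list does not hold every gene the study singled out, which include the called genes Ifi47 and Gbp2 and also Iigp1, Nkg7 and Sprr1a. Since all of these were chosen on the same samples, they are no independent evidence.

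What could not be called was bounded to different degrees. For 9147 genes (52.1%) the 95% interval of the interaction lay within a 2-fold difference in either direction. Among genes above the median level of 8.42 this share was 88.8%, where the limits of the interval lay a median of 0.41 from the estimate, and among the others 15.4%, where they lay a median of 1.47 from it. These intervals are not adjusted for the number of genes, and interactions larger than these distances also missed the threshold, such as those of Wars, Tap1 and Ido1. A missed threshold does not show that the genotypes responded alike.

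**Figure D5:**
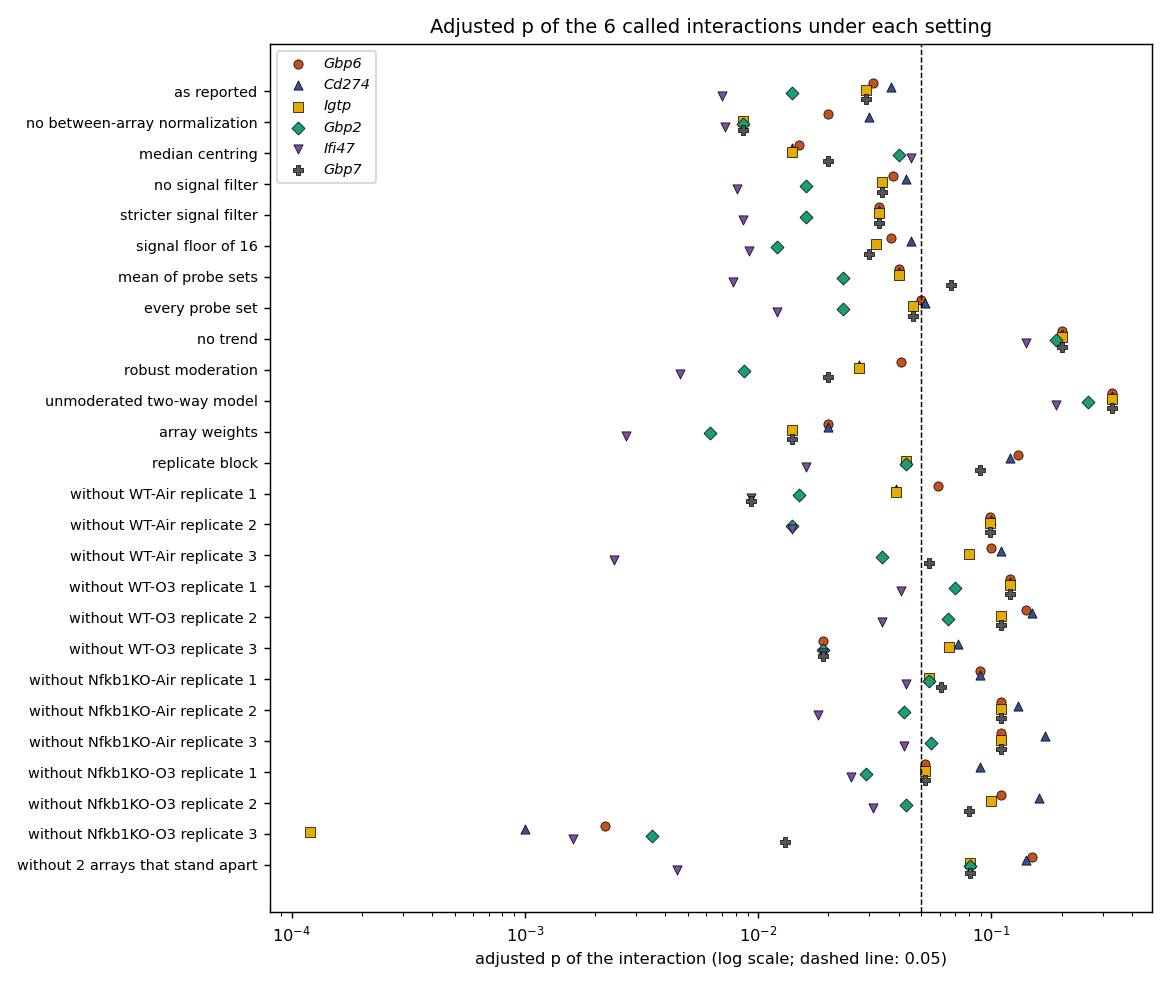
Adjusted p of the interaction (x axis, log scale) of the 6 called genes under the reported analysis and each alternative (y axis), with the threshold of 0.05 dashed. Ifi47 stays left of the line in each of the 12 fits that leave out 1 array, and all 6 genes lie right of it in the fits without a mean-dependent trend and without moderation.

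The 6 calls did not rest equally on all arrays. Ifi47 passed in each of the 12 fits that left out 1 array (limma adjusted p of 0.0016 to 0.043) and without the 2 arrays that stood apart. Gbp2 was lost without WT-O3 replicate 1 or 2 and without Nfkb1KO-Air replicate 1 or 3. Igtp, Gbp6, Gbp7 and Cd274 were lost in most of these fits, although their interactions stayed between 1.5 and 3.11 on the log2 scale under every alternative. Without Nfkb1KO-Air replicate 1 and WT-Air replicate 3 together, Ifi47 was the only one of the 6 to pass.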

How the data were processed

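Total RNA of the left lung (RNeasy kit) was labelled with a 3′ in vitro transcription kit and hybridized to 12 Affymetrix Mouse 430 2.0 arrays, 1 mouse each, and groups were taken from the sample titles. The deposited values are linear signal intensities per probe set, which the authors computed with MAS5 in Affymetrix Expression Console (versions not given in the sources used here) and scaled to a trimmed mean of 500 per array. They are neither logged nor quantile normalized, and MAS5 subtracts mismatch signal, which makes low values noisy.

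Signals under 1 were set to 1, logged (log2) and quantile normalized. The 64 control probe sets were set aside. A probe set was kept if it exceeded the 20th percentile in at least 1 array. Of 45101 probe sets, 34958 carried 1 gene symbol in the platform annotation, 932 several and 9211 none, and 33386 of the first kind passed the filter. For the 8630 genes with more than 1 probe set, that with the highest mean was used, which left 17569 genes. limma 3.58.1 in R 4.3.3 fitted group means to the 12 arrays, with a mean-dependent trend in eBayes and Benjamini-Hochberg adjustment over all genes. The fit was tested on simulated data with known interactions. SE, 95% intervals and p-values come from the moderated fit. They rest on the spread between single mice, drawn towards that of genes of similar mean signal.

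The genes and the 41 gene lists were chosen with earlier results of these data known. Named are the called genes, in each direction the next by p up to 10 whose highest group mean exceeds the median gene, for each list up to 2 genes, those of lowest p, and also 32 of the genes the study singled out, together with members of the interferon, cell cycle and injury lists named for their role. Lists are described by counts and medians without a test. Since 0.0342% of all genes were called, a list without a call says little about its members. Promoter windows and symbols are from RefSeq (GRCm38.p6), and 34754 of the probe sets with 1 symbol matched it by gene number. Alternatives covered normalization, filter, floor, choice of probe set, moderation, array weights, the replicate number and the arrays used. Arrays with the same replicate number did not deviate together (correlation of deviations -0.17 to 0.11 over 18 pairs, above 0.1 in 1), so the number was not used as a pairing.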

Additional observations from a re-analysis of the deposited data

Results flagged for a closer look

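The 6 called interactions are differences between the genotypes in the O3 response, each tested by its interaction term in limma: Gbp6 at 2.72, Cd274 at 2.42, Igtp at 2.25, Gbp2 at 1.78, Ifi47 at 1.73 and Gbp7 at 1.65, all on the log2 scale and with limma adjusted p between 0.007 and 0.037. In all 6 genes the Nfkb1KO-O3 arrays exceeded the other 9. They also did so in genes that were not called, such as Il6 with an interaction of -0.28, and the share over all genes was not counted. The genes were picked out by the test itself, so the sizes of these interactions can be too large.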

How the results depend on the processing

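The count of called interactions was 6 as reported, 11 without normalization between arrays, 10 with median centring (which moved the median of all genes from 0.01 to 0.25), 15 with array weights and 0 in limma without the mean-dependent trend or in the unmoderated two-way model, where 993 and 1053 genes had an unadjusted p below 0.05. In these last 2 fits the adjusted p of Ifi47 was 0.14 and 0.19. Leaving out 1 array at a time gave 1 to 9 calls (1 without WT-O3 replicate 1, WT-O3 replicate 2, Nfkb1KO-Air replicate 1 or Nfkb1KO-Air replicate 3, and 9 without WT-Air replicate 1). Leaving out both arrays that stood apart gave 4, of which Ifi47 was shared with the 6 and 3 were negative (Gdpd3, Retnla and Smim6). The filter, the floor, the choice of probe set and robust moderation gave 5 to 7. With the replicate number as a block 4 genes passed (Gbp2, Gzma, Ifi47 and Igtp), and 3 of them were among the 6. All 6 called genes were positive in each of the 25 alternatives.

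The number of genes bounded within 2-fold, 9147, became 4837 with median centring and 8536 to 9525 without single arrays. Some genes that were not called changed sign. With median centring Ahr and Erbb3 were at 0.01, Hspa4l at 0.02, Tnc at 0.03, Col1a2 at 0.15, Oas1a at 0.22, Hsp90aa1 at 0.23 and B2m at 0.31. Without normalization B2m was at 0.01, and with the floor of 16 Il6 was at 0.06. With the mean of probe sets Tap1 was at -0.06, Ryr2 at -0.20, Pycard at -0.37 and Tnc at 0.46. Without single arrays Tnc ranged from -0.42 to 0.13, Il6 from -0.48 to 0.11, Myl7 from -0.37 to 1.22, Ryr2 from -0.43 to 0.98, Ccl20 from -0.57 to 1.27, Il2rb from -0.09 to 2.51, Jchain from -0.12 to 1.94 and Pttg1 from -0.20 to 0.94. The cause of these shifts was not tested. Of 40 gene list medians 19 kept their sign in all 25 alternatives, among them those of the IFN-γ-inducible GTPases (1.62 to 2.12), the G2/M genes (-1.59 to -0.59) and the epithelial injury genes (-0.57 to -0.09). Low signals limit the rest, since MAS5 values under the 20th percentile are poorly determined and no detection calls were used.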
